A study of Mus musculus with 6 samples.

Results

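The genes described here are 40 mouse genes of the endoplasmic reticulum (ER) and of the first step of protein secretion. They were chosen by name as members of the secretory pathway and its stress response. These genes and the other lists below were chosen with earlier results of these data known. Counts set beside the share of all genes are therefore descriptions and not tests of an excess. The members are 40 of the 54532 genes in the count table. All 40 were among the 14624 genes that had enough counts to be tested. They fall into 5 classes, with 15 chaperones and folding enzymes, 5 stress sensors and targets, 8 degradation genes, 8 genes of COPII vesicles and retrieval, and 4 translocon genes. RNA was sequenced from primary BMSCs (bone marrow mesenchymal stromal cells) of wild-type mice, plastic-adherent cells with the capacity to become osteoblasts, after 7 days in osteogenic medium. The 3 control libraries came from cells in that medium alone, described as a vehicle control, and the 3 Ni libraries from cells that also received 0.1 μM nickel ion. Both groups therefore shared the differentiation treatment, in which ascorbic acid stood at 50 μg/mL and β-glycerophosphate at 10 mM. Dexamethasone was at 100 nM by the labels, while the study's methods give another concentration. The series describes the replicates of each condition as independent, and p-values measure the spread between these libraries.

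Proteins that a cell secretes enter the ER through the translocon, fold there with the help of chaperones and disulfide isomerases, and leave in vesicles coated with the COPII proteins. When unfolded proteins build up, the sensors IRE1 (Ern1), ATF6 and PERK (Eif2ak3) start the unfolded protein response, which raises chaperones and the machinery of ER-associated degradation. Osteoblasts secrete large amounts of collagen, a cargo that is long and slow to fold, so this pathway carries a heavy load in bone-forming cells.

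Several of these genes are textbook targets of the response, and their promoters hold the ER stress response element, the letters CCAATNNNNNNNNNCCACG read on either strand. RefSeq promoters (GRCm38.p6), from 250 bases before to 50 bases after each start, were matched by symbol for 34 of the 40 genes. Hyou1, Manf, Atf6, Derl1, Kdelr2 and Sec61a1 were not matched. The element was present in 9 of the 34 genes (26.5%), namely Hspa5, Hsp90b1, Calr, Canx, Pdia6, Dnajc3, Creld2, Derl3 and Syvn1, or 9 of their 36 promoters (25%), against 39 of 32851 promoters in all (0.119%). The windows below belong to the 5 of these genes with the smallest p in the comparison of Ni with control and show the element where it lies, with its fixed letters in capitals and 15 bases on each side, read 5′ to 3′ along the gene's strand. Where the capitals read CGTGG and ATTGG the element lies on the opposite strand.
Hsp90b1, chr10:86705518-86705566, minus strand: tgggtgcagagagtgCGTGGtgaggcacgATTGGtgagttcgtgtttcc
Hsp90b1, second element, chr10:86705623-86705671, minus strand: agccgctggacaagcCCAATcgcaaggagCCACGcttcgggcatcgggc
Derl3, chr10:75893227-75893275, plus strand: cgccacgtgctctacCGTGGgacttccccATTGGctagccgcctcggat
Syvn1, chr19:6046517-6046565, plus strand: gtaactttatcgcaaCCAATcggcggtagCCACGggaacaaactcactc
Calr, chr8:84847060-84847108, minus strand: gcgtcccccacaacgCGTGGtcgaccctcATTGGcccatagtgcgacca
Creld2, chr15:88819505-88819553, plus strand: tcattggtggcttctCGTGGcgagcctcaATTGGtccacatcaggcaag

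A further pair of elements was searched after the values had been seen. Both share the letters CCACG or their complement with the first. The letters ATTGGNCCACG, known as ER stress response element II, were found in Herpud1 and Dnajb11 and in 12 of all promoters (0.0365%). The letters TGACGTGG, the core of the unfolded protein response element, were found in Kdelr3, Sec23a and Sec24d and in 222 of all promoters (0.676%). The windows of Herpud1 and Kdelr3 are printed because these genes lie near opposite ends of the fold changes below, and in Kdelr3 the element lies on the opposite strand. These matches describe the letters in the windows and are not evidence of binding.
Herpud1, chr8:94386362-94386402, plus strand: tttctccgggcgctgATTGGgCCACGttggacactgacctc
Kdelr3, chr15:79516363-79516400, plus strand: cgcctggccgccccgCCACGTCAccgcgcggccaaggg

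The libraries held between 16101033 and 18642504 counts. In the comparison of Ni with control by edgeR's quasi-likelihood test, 0 of the 14624 genes tested (0%) had a Benjamini-Hochberg adjusted p under 0.05, and 1963 genes had an unadjusted p under 0.05. Control replicate 3 lay nearer the Ni mean than the mean of the other controls for 67.6% of all genes tested. Among the 40 genes this held for 25 (62.5%). Results without this library are therefore also given for genes whose call it changed. Leaving out the control most like Ni tends by itself to widen the gap between groups and narrow the spread of controls. The p-values from that fit, here and below, are thus descriptions and no independent support for a difference. All 9 osteoblast markers had higher levels in Ni with no overlap between the groups, against 7.97% of all genes tested. Their summed level was 1070 to 2956 CPM in controls and 3268 to 6526 CPM in Ni, where CPM is a count scaled by the normalized library total. The 10 macrophage markers, which mesenchymal cells should lack, summed to between 24429 and 29632 CPM in controls and between 24829 and 25662 CPM in Ni, so markers of another cell type were abundant in both groups. Values below are therefore levels of mixed bulk RNA, in which fewer cells of a type and less RNA per cell cannot be told apart.

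The 40 genes did not move as a unit between Ni and control. The 8 members of the COPII and retrieval class were all on the higher side in Ni. The 8 degradation members were all on the lower side, and the stress sensors and most chaperones stayed close to 0. None of the 40 passed at an adjusted p of 0.05 by edgeR's quasi-likelihood test, where the smallest adjusted p was 0.301. At an unadjusted p under 0.05, 7 of the 40 were higher in Ni, against 7.59% of all genes tested, and 2 were lower, against 5.83%. DESeq2 called 1 of them, Kdelr3, against 1.53% of genes called higher by that tool, and limma on log2(FPKM + 1) called 0. Log2 fold changes ran from -1.25 to 0.77 with a median of -0.03, beside -0.01 for all genes tested, and 19 were above 0 and 21 below. The groups were apart, with Ni higher, in 5 of the 40 genes, against 7.97% of all genes tested, and with Ni lower in another 5, against 6.71%. With 3 libraries against 3, an exact two-sided permutation test of a single gene cannot give a p below 0.1. When control replicate 3 was left out, 8 of the 40 genes were higher and 5 lower at an adjusted p under 0.05 by edgeR's quasi-likelihood test, against 8.69% and 6.49% of all genes tested.

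**Figure D1:**
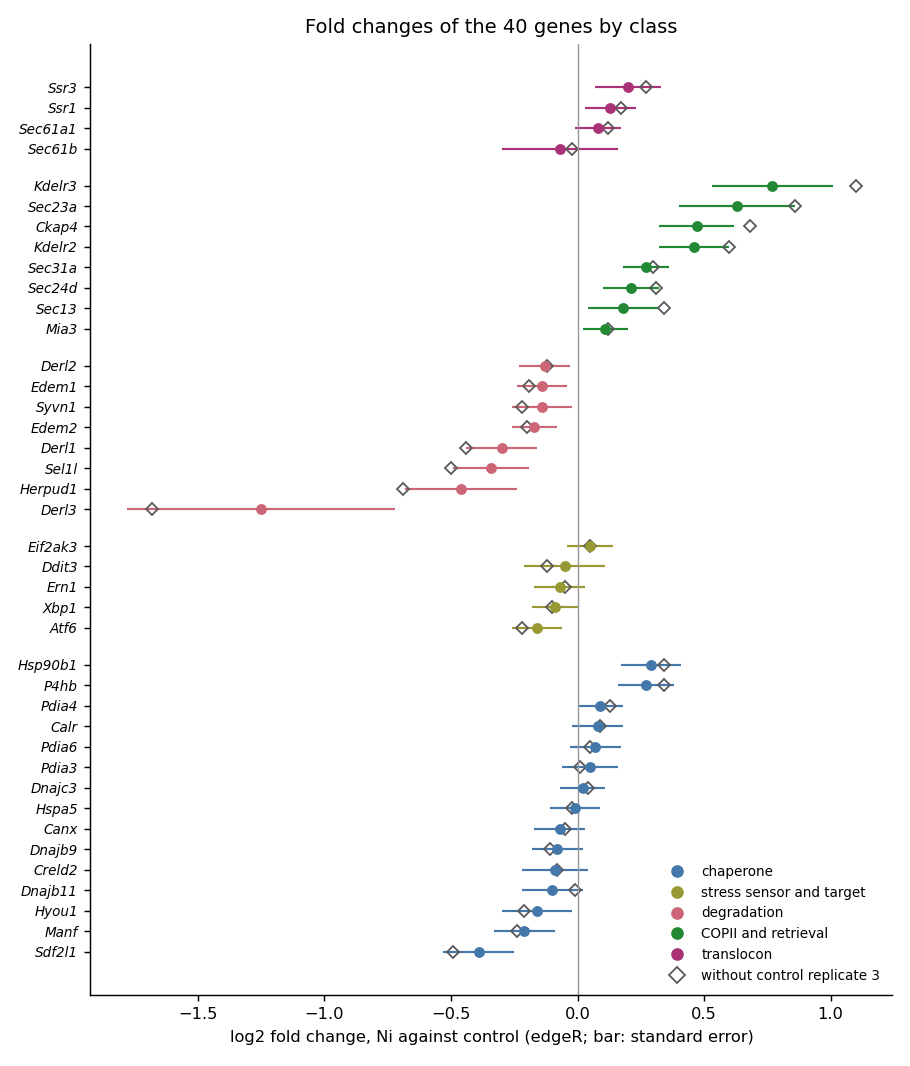
Log2 fold change of each of the 40 genes, Ni against control, by class on the vertical axis, with circles for edgeR's estimate over all 6 libraries, bars for its standard error and open diamonds for the estimate without control replicate 3. The 8 COPII and retrieval genes lie right of 0 and the 8 degradation genes left of it, and in the COPII and retrieval class the diamonds lie farther from 0 than the circles.

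Chaperones were the most abundant of the classes. On the FPKM scale, which divides by gene length, the highest control means were those of P4hb at 324 ± 22.1, Calr at 300 ± 4.36, Pdia3 at 248 ± 17.4, Hspa5 at 234 ± 9.59 and Hsp90b1 at 171 ± 14.8 FPKM (SD, n = 3). Within that order P4hb and Calr were not clearly apart beyond their spread, nor were Pdia3 and Hspa5. The 15 chaperones summed to 6247, 5926 and 6146 CPM in the controls and 6428, 6407 and 6583 CPM in the Ni libraries. The sum was thus higher in each Ni library than in any control. The largest differences in it were those of P4hb, with means of 934 CPM in control and 1128 CPM in Ni, and Hsp90b1, with 693 and 845 CPM. The class as a whole had a median log2 fold change of -0.01, with 7 above 0 and 8 below. In it 2 higher genes and 1 lower gene had an unadjusted p under 0.05 by edgeR's quasi-likelihood test, against 7.59% and 5.83% of all genes tested.

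**Figure D2:**
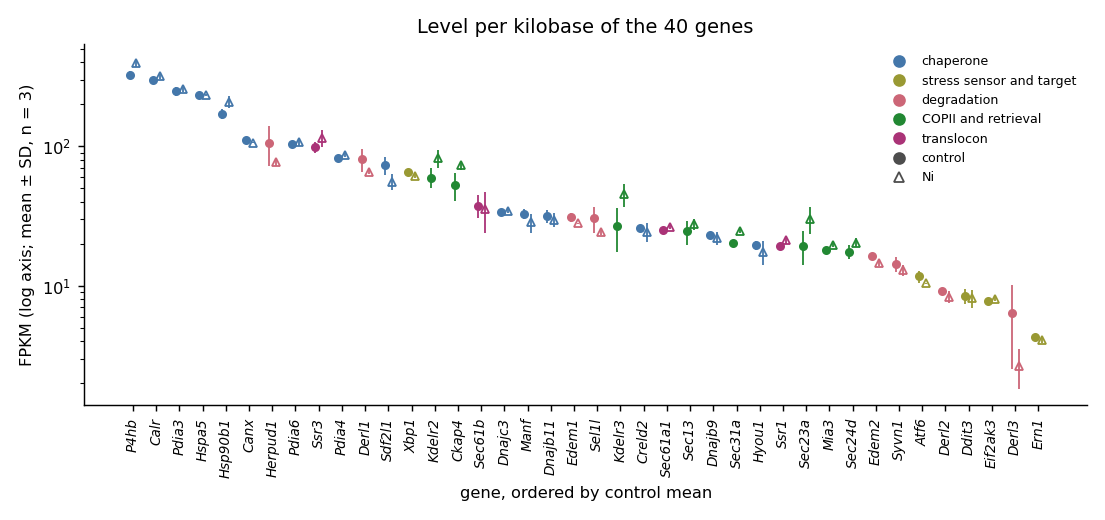
Mean FPKM of each gene on a log axis, ordered by the control mean, with filled circles for control, open triangles for Ni, bars for the SD over 3 libraries and colours for the class. Chaperones fill the upper end, from 324 FPKM for P4hb, and the sensor Ern1 stands last at 4.3 FPKM.

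P4hb (chromosome 11, 120560298 to 120573253, GRCm38), protein disulfide isomerase and the β subunit of collagen prolyl 4-hydroxylase, had 913, 881 and 1006 CPM in the controls and 1167, 1069 and 1149 CPM in the Ni libraries. All Ni libraries were above all controls. The log2 fold change was 0.27 (standard error, SE, 0.11), with an adjusted p of 0.35 by edgeR's quasi-likelihood test, and 0.34 without control replicate 3, with an adjusted p of 0.0207. Hsp90b1 (GRP94, the HSP90 of the ER) had 720, 624 and 736 CPM in the controls and 864, 757 and 915 CPM in the Ni libraries. Here too the groups did not overlap, although Ni replicate 2 was close to control replicate 3. Its log2 fold change was 0.29 (SE 0.12), with an adjusted p of 0.358 by edgeR's quasi-likelihood test, and 0.049 when control replicate 3 was left out. Exons of opposite-strand genes cover 10.3% of the exon bases of Hsp90b1, and whether the counting used strand is not given.

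Sdf2l1, a partner of the ER HSP70 cycle and a known target of the stress response, was on the other side. It had 81.2, 94 and 69.5 CPM in the controls and 58, 72.1 and 56.6 CPM in the Ni libraries. Ni replicates 1 and 3 were below all controls, and Ni replicate 2 was above control replicate 3. The fitted log2 fold change was -0.39 (SE 0.14), with an adjusted p of 0.315 by edgeR's quasi-likelihood test and 0.0177 without control replicate 3. Manf, a secreted ER-resident protein that protects cells under stress, had 113, 127 and 110 CPM in the controls and 87.8, 119 and 96 CPM in the Ni libraries, a log2 fold change of -0.21 (SE 0.12). Its groups overlapped through Ni replicate 2. Calr, calreticulin, a calcium-binding lectin that folds glycoproteins, had 885, 861 and 870 CPM in the controls and 877, 966 and 927 CPM in the Ni libraries. The Calr ranges overlapped through Ni replicate 1, and the log2 fold change was 0.08 (SE 0.10).

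Hspa5, which encodes BiP, the ER HSP70 and the usual readout of the unfolded protein response, is given although the rule for named genes did not select it. It had 1044, 966 and 989 CPM in the controls and 982, 985 and 1004 CPM in the Ni libraries. The Ni values lay wholly within the range of the controls. The log2 fold change was -0.01 (SE 0.10), and its sign turned under some alternatives. The remaining chaperones had overlapping groups and log2 fold changes between -0.16 for Hyou1, a large HSP70-like protein, and 0.09 for Pdia4. Between them lay the lectin chaperone Canx at -0.07, the disulfide isomerases Pdia3 at 0.05 and Pdia6 at 0.07, and the HSP40 co-chaperones Dnajb9 at -0.08, Dnajb11 at -0.10 and Dnajc3 at 0.02. Creld2, a disulfide isomerase-like stress target, was at -0.09.

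The 20 other chaperones and folding enzymes of the pathway list had 16 log2 fold changes above 0 and a median of 0.16. An unadjusted p under 0.05 was reached by 2 that were higher and 1 that was lower, against 7.59% and 5.83% of all genes tested. Fkbp11, a prolyl isomerase of secretory cells, had 13.6, 15.9 and 23.6 CPM in the controls and 30.6, 30.2 and 36.7 CPM in the Ni libraries. All Ni libraries were above all controls, at a log2 fold change of 0.88 (SE 0.19). Its adjusted p was 0.212 by edgeR's quasi-likelihood test and 0.00485 by DESeq2, and without control replicate 3 edgeR gave 1.14 with an adjusted p of 0.000273. Fkbp2, a related prolyl isomerase, was at -0.34, the disulfide isomerase Pdia5 at 0.44 and the thioredoxin-like Txndc12 at 0.22, each with groups that did not overlap. Without control replicate 3 Pdia5 was at 0.66 with an adjusted p of 0.00265 by edgeR, and Fkbp2 at -0.41 with 0.0385.

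The sensors and their targets differed little between the groups. None of the 5 had an unadjusted p under 0.05, the median log2 fold change was -0.07, and the values ran from -0.16 to 0.05. Xbp1, the transcription factor whose mRNA IRE1 splices, had 220, 214 and 207 CPM in the controls and 193, 207 and 204 CPM in the Ni libraries. The Ni libraries lay below the controls by a narrow margin, Ni replicate 2 and control replicate 3 both rounding to 207 CPM. The fitted log2 fold change was -0.09 (SE 0.09), and gene counts do not separate spliced from unspliced Xbp1. Ern1, the sensor IRE1α, had 35, 35.4 and 35.9 CPM in the controls and 31.5, 35.5 and 34.4 CPM in the Ni libraries, which overlapped, with a log2 fold change of -0.07 (SE 0.10).

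Atf6, the membrane-bound factor that is cut in the Golgi, had 120, 107 and 98.9 CPM in the controls and 94.8, 97.7 and 97.7 CPM in the Ni libraries. All Ni libraries were lower than all controls, with a narrow gap to control replicate 3. The log2 fold change was -0.16 (SE 0.10), with an adjusted p of 0.479 by edgeR's quasi-likelihood test. Eif2ak3, the kinase PERK that slows translation, had 44.9, 49.7 and 46.9 CPM in the controls and 50.2, 49.2 and 47 CPM in the Ni libraries. The groups overlapped, and the log2 fold change was 0.05 (SE 0.09). Ddit3, the factor CHOP, which is raised by prolonged stress, had 14.2, 16.4 and 13.1 CPM in the controls and 12.8, 16.5 and 12.9 CPM in the Ni libraries. The libraries overlapped throughout, and the log2 fold change of -0.05 (SE 0.16) changed sign when single libraries were left out.

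Among 14 other sensors and targets, 10 had log2 fold changes above 0 and 4 were higher at an unadjusted p under 0.05, where 7.59% of all genes tested were, and none was lower. Their median was 0.07. Creb3l1 (OASIS), a cousin of ATF6 that drives collagen genes in osteoblasts, had 41.5, 41.7 and 63.5 CPM in the controls and 104, 74.8 and 96.6 CPM in the Ni libraries. The groups did not overlap. Its log2 fold change was 0.91 (SE 0.19), with an adjusted p of 0.212 by edgeR's quasi-likelihood test and 0.000709 by DESeq2, and without control replicate 3 edgeR gave 1.15 with an adjusted p of 0.000228. The other genes named by p were Trib3, a pseudokinase of the PERK branch, at 0.63, the glutathione-degrading Chac1 at 0.67 and the stress-induced cofactor Nupr1 at 0.53. Of these Nupr1 was called without control replicate 3, at 0.76 with an adjusted p of 0.000479 by edgeR's quasi-likelihood test. Trib3 and Chac1 were scarce, at 3.99 to 6.62 CPM for Trib3 and 1.83 to 4.42 CPM for Chac1.

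All 8 degradation genes had log2 fold changes below 0, with a median of -0.24. Only 1 of them was lower at an unadjusted p under 0.05, against 5.83% of all genes tested, and in 3 all Ni libraries were below all controls, against 6.71%. Their summed level was 1310, 1326 and 948 CPM in the controls and 987, 992 and 949 CPM in the Ni libraries. Controls 1 and 2 were thus apart from the other 4 libraries, and control replicate 3 was the lowest of all 6. Control replicate 3 lay nearer the Ni mean than the mean of the other controls for 7 of the 8 genes.

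**Figure D3:**
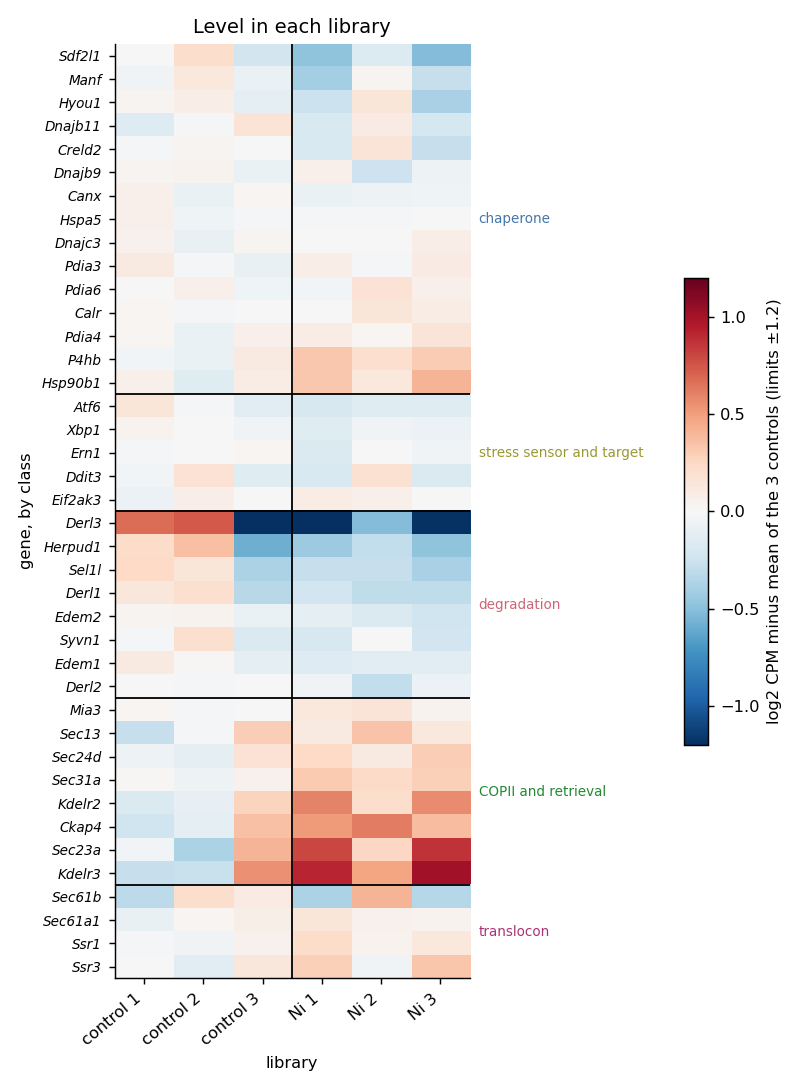
Level of each of the 40 genes in each library, as log2 CPM minus the mean of the 3 controls, with genes on the vertical axis by class and libraries on the horizontal axis; the colour scale stops at ±1.2. Control replicate 3 has the colours of the Ni libraries in Herpud1, Sel1l, Derl1 and Derl3 but not in Derl2, and it lies between the other controls and the Ni mean in Kdelr3, Sec23a, Kdelr2 and Ckap4 but not in Sec13 or Mia3.

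Herpud1 (chromosome 8, 94386438 to 94395377), a stress-induced membrane protein that gathers the degradation complex, had 279, 307 and 159 CPM in the controls and 177, 195 and 171 CPM in the Ni libraries. Control replicate 3 was below all Ni libraries, so the groups overlapped. The fitted log2 fold change was -0.46 (SE 0.22), with an adjusted p of 0.401 by edgeR's quasi-likelihood test, and -0.69 without control replicate 3, with an adjusted p of 0.000444. Sel1l, the adaptor of the ubiquitin ligase HRD1, had 304, 284 and 198 CPM in the controls and 213, 212 and 197 CPM in the Ni libraries. Control replicate 3 stood at the level of Ni replicate 3. Its log2 fold change was -0.34 (SE 0.15), with an adjusted p of 0.371 by edgeR's quasi-likelihood test, and -0.50 without control replicate 3, with an adjusted p of 0.00198.

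Derl1, a derlin of the retrotranslocation channel, had 294, 305 and 212 CPM in the controls and 228, 216 and 216 CPM in the Ni libraries. Control replicate 3 was the lowest of these libraries. The log2 fold change was -0.30 (SE 0.14) and became -0.44 without control replicate 3, with an adjusted p of 0.00359 by edgeR's quasi-likelihood test. Derl3 (chromosome 10, 75893413 to 75895941), the derlin most abundant in secretory cells such as plasma cells, had 16.8, 17.6 and 3.96 CPM in the controls and 4.13, 7.37 and 4.64 CPM in the Ni libraries. Control replicate 3 was the lowest of all libraries. The fitted log2 fold change of -1.25 (SE 0.53) was the largest in size of the 40 genes, with an adjusted p of 0.372 by edgeR's quasi-likelihood test, and it was -1.68 without control replicate 3, with an adjusted p of 0.000408.

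The other 4 degradation genes differed less. Edem1 at -0.14, Edem2 at -0.17, both mannosidase-like proteins that act on misfolded glycoproteins, and Derl2 at -0.13 had no overlap between the groups, with Ni lower. For Edem2 these were 58.3, 58.4 and 53.9 CPM in the controls and 52.7, 50.4 and 48.3 CPM in the Ni libraries. Syvn1, the ubiquitin ligase HRD1, was at -0.14 with overlapping groups, and at -0.22 without control replicate 3. In the list of 20 other degradation genes, 7 were above 0 and 13 below, with a median of -0.04, and 1 was higher and none lower at an unadjusted p under 0.05, against 7.59% and 5.83% of all genes tested. The genes named by p were Fam8a1, a partner of HRD1, at 0.31, the ubiquitin ligase March6 at -0.18, the mannosidase-like Edem3 at 0.18 and the ubiquitin-conjugating Ube2j1 at -0.15.

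Some markers of other cell types were also higher in control replicates 1 and 2 than in the other 4 libraries. Of 9 plasma and B cell markers only Ighm and Cd79b were tested; Ighm had 145, 176 and 51.5 CPM in the controls and 54.2, 70.5 and 47.6 CPM in the Ni libraries. Mzb1 and Ms4a1, which define those cells, were at 0 in all 6 libraries, and Jchain and Igkc were at 0.42 CPM or less. The list summed to between 65.9 and 218 CPM in controls and between 62.5 and 89.3 CPM in Ni. The 10 macrophage markers had no common direction, with 4 log2 fold changes above 0 and 6 below, and Lyz2, Mrc1 and Cd68 were highest in control replicate 3. Adgre1 was at 3729 and 3781 CPM in control replicates 1 and 2 and between 2342 and 2793 CPM in the other libraries. The 1 macrophage marker lower at an unadjusted p under 0.05 was Aif1, with 213, 280 and 107 CPM in the controls and 94.6, 126 and 84 CPM in the Ni libraries. Of 7 osteoclast markers 3 were tested, and the list summed to between 641 and 1333 CPM in controls and between 594 and 681 CPM in Ni. Acp5 made up most of that sum, with 1013, 1190 and 417 CPM in the controls, while Ctsk was on the higher side in Ni at 0.62 and Mmp9 was highest in control replicate 3. Ocstamp, which marks fused osteoclasts, was at 0 in 4 libraries. The 5 endothelial markers summed to between 43.7 and 72.2 CPM in controls and between 41.1 and 46 CPM in Ni. Pecam1, which made up most of that sum, had 46.7, 54.2 and 26.6 CPM in the controls and 25.3, 32.4 and 23.5 CPM in the Ni libraries. Of the others Emcn was higher in all Ni libraries at 0.58, Kdr was at 0.09, Tek at -0.66 and Cdh5 at -0.19. The part of these cells in the lower degradation genes was not tested.

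The 8 members of the COPII and retrieval class, in which the ER sheet protein Ckap4 is counted, were on the higher side in Ni. This did not hold for such genes in general, since 12 of the 30 others listed were below 0. All 8 had log2 fold changes above 0, the median was 0.36, and 5 of the 8 were higher at an unadjusted p under 0.05, against 7.59% of all genes tested. Their summed level was 770, 766 and 983 CPM in the controls and 1128, 1030 and 1113 CPM in the Ni libraries, so the groups did not overlap and control replicate 3 stood between. By gene, 3 of the 8 had groups that did not overlap, against 7.97% of all genes with Ni higher.

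Kdelr3 (chromosome 15, 79516411 to 79527739), a receptor that returns escaped chaperones to the ER, had 30.1, 30.3 and 53.2 CPM in the controls and 68.8, 50.8 and 73.2 CPM in the Ni libraries. Ni replicate 2 was just below control replicate 3, so the groups overlapped. The log2 fold change was 0.77 (SE 0.24), the highest of the 40 genes, with an adjusted p of 0.309 by edgeR's quasi-likelihood test and 0.0389 by DESeq2. Without control replicate 3 it was 1.10, with an adjusted p of 0.000434 by edgeR. Kdelr2, the related receptor of wider use, had 96.8, 102 and 131 CPM in the controls and 165, 126 and 161 CPM in the Ni libraries. Ni replicate 2 was again below control replicate 3. Its log2 fold change was 0.46 (SE 0.14), with the smallest adjusted p of the 40 genes, 0.301 by edgeR's quasi-likelihood test, and 0.00458 without control replicate 3.

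Ckap4, a membrane protein that shapes ER sheets, had 136, 148 and 205 CPM in the controls and 228, 246 and 207 CPM in the Ni libraries. All Ni libraries were above all controls, with control replicate 3 and Ni replicate 3 nearly equal. The fitted log2 fold change was 0.47 (SE 0.15), with an adjusted p of 0.306 by edgeR's quasi-likelihood test and 0.000723 without control replicate 3. Sec31a, which forms the outer COPII cage, had 163, 155 and 168 CPM in the controls and 201, 190 and 198 CPM in the Ni libraries. These groups were apart, and control replicate 3 was close to the other controls. Its log2 fold change was 0.27 (SE 0.09), with an adjusted p of 0.308 by edgeR's quasi-likelihood test and 0.0315 without control replicate 3.

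Sec23a (chromosome 12, 58958383 to 59012017), a subunit of the inner COPII coat whose loss impairs collagen export in bone, was added after its values had been seen. It had 90.4, 71 and 123 CPM in the controls and 161, 110 and 169 CPM in the Ni libraries. Ni replicate 2 was below control replicate 3, and the other Ni libraries were above all controls. The log2 fold change was 0.63 (SE 0.23), with an adjusted p of 0.334 by edgeR's quasi-likelihood test and 0.0213 without control replicate 3. Sec24d, the cargo-binding partner of Sec23a, was at 0.21, and at 0.31 with an adjusted p of 0.0429 by edgeR without control replicate 3. Sec13, a cage subunit, was at 0.18, and at 0.34 with an adjusted p of 0.0675 by edgeR without control replicate 3. Mia3 (TANGO1), which loads collagen into COPII carriers, was at 0.11 with Ni libraries of 88.5, 89.9 and 83.5 CPM against 82, 79.5 and 81.1 CPM in the controls.

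**Figure D4:**
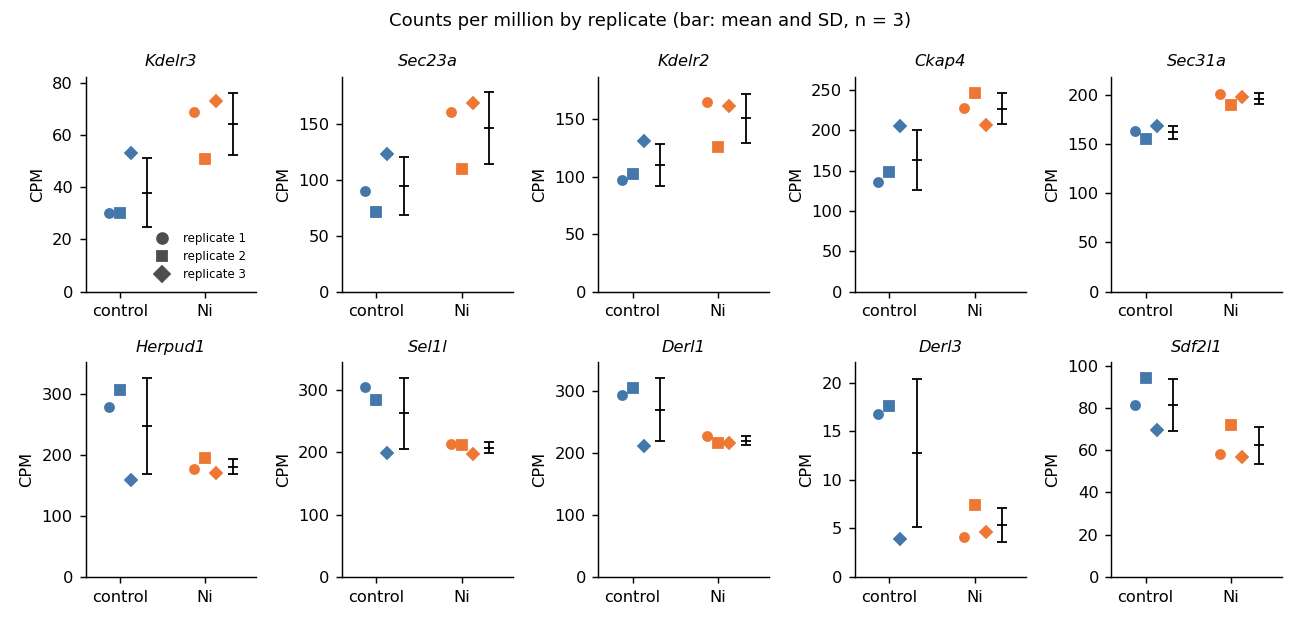
CPM of 10 genes in each library, with blue points for control and orange points for Ni, a symbol for each replicate number, and a bar for the mean and SD of 3 libraries; each panel has its own vertical axis from 0. Control replicate 3, the blue diamond, is the control nearest the Ni points in Kdelr3 and below all Ni points in Herpud1.

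The 30 other genes of vesicle transport and retrieval did not share the size of this difference. Their median log2 fold change was 0.02, with 18 above 0 and 12 below, and 3 were higher and none lower at an unadjusted p under 0.05, against 7.59% and 5.83% of all genes tested. These 3 were Copg1, a subunit of the COPI coat, at 0.23, the cargo receptor Lman1 at 0.33 and the small GTPase Arf4 at 0.22. The COPII scaffold Sec16b, named by p, was at 0.63 with 3.9 to 10.3 CPM. Without control replicate 3 Lman1 was at 0.49 with an adjusted p of 0.00611 by edgeR's quasi-likelihood test, and Sec16b at 1.01 with 0.0138.

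In summed level, the secreted cargo and the enzymes that modify collagen varied over the libraries much as the COPII and retrieval genes did. Not every COPII and retrieval gene had this order. In Sec13, Ckap4 and Mia3 Ni replicate 2 was the highest Ni library, and in Sec31a and Mia3 control replicate 3 lay close to the other controls. All 14 matrix genes were higher at an unadjusted p under 0.05, against 7.59% of all genes tested. Their median log2 fold change was 0.86, with summed levels of 17964, 18961 and 30495 CPM in the controls and 44582, 36333 and 43224 CPM in the Ni libraries. Of 13 collagen-folding genes, all had log2 fold changes above 0, with a median of 0.59, and 10 had an unadjusted p under 0.05, against 7.59% of all genes tested higher. Among them Serpinh1, the collagen chaperone HSP47, had 567, 561 and 894 CPM in the controls and 1133, 1048 and 1186 CPM in the Ni libraries. In the summed level of each list control replicate 3 was the highest control and Ni replicate 2 the lowest Ni library. The osteoblast markers had that order as well. Control replicate 3 lay nearer the Ni mean than the mean of the other controls for 67.6% of all genes tested. Its place is thus not particular to these lists. The part of cell composition in the higher COPII genes was not tested.

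The 4 translocon genes were not told apart between the groups, with a median log2 fold change of 0.11 and no unadjusted p under 0.05. Ssr3, a subunit of the translocon-associated protein complex, had 414, 379 and 456 CPM in the controls and 505, 403 and 523 CPM in the Ni libraries, a log2 fold change of 0.20 (SE 0.13). Its groups overlapped through Ni replicate 2. Ssr1, of the same complex, had 202, 199 and 212 CPM in the controls and 238, 211 and 223 CPM in the Ni libraries, at 0.13 (SE 0.10). Those groups met at control replicate 3.

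Sec61a1, the channel itself, had 159, 172 and 178 CPM in the controls and 187, 176 and 175 CPM in the Ni libraries, at 0.08 (SE 0.09). Its groups overlapped through control replicate 3. Sec61b, a small subunit of the channel, had 38.1, 55 and 50.9 CPM in the controls and 36.5, 63.1 and 37.3 CPM in the Ni libraries, at -0.07 (SE 0.23). It had the widest spread in this class, and 17.4% of its stretches of 50 bases occur in other genes. Among 31 other genes of translocation, signal cleavage and glycosylation, an unadjusted p under 0.05 was reached by 2 that were higher and 2 that were lower, against 7.59% and 5.83% of all genes tested. The signal peptidase subunit Sec11c, at -0.36, and the channel subunit Sec61g, at -0.39, were lower, while the glycosylation subunit Tusc3, at 0.34, and the translocation-associated Tram2, at 0.34, were higher, each with groups that did not overlap. These 4 were named because they had the smallest p of the list. Without control replicate 3 edgeR called all 4, with adjusted p-values from 0.0102 for Sec11c to 0.0377 for Tram2. At an adjusted p under 0.05 that fit called 3 of the 31 genes higher and 3 lower, against 8.69% and 6.49% of all genes tested.

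The genes with the ER stress response element in the printed windows and elsewhere had no common direction. The 9 genes had a median log2 fold change of -0.01, with a range from -1.25 for Derl3 to 0.29 for Hsp90b1. At an unadjusted p under 0.05 by edgeR's quasi-likelihood test, 1 was higher and 0 lower, against 7.59% and 5.83% of all genes tested. The 25 genes with a matched promoter that lacked the element had a median of 0.05, with 5 higher and 2 lower at that threshold. Within the chaperones the 7 genes with the element had a median of 0.02, equal to that of all 13 chaperones with a matched promoter. Of the 3 genes with the letters TGACGTGG, Kdelr3 was at 0.77, Sec23a at 0.63 and Sec24d at 0.21. All 3 are in the COPII and retrieval class, whose 7 members with a matched promoter had a median of 0.27. With the letters ATTGGNCCACG, Herpud1 was at -0.46 and Dnajb11 at -0.10. Both of these elements were searched after the values had been seen, so the fold changes are no test of them.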

How the data were processed

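The authors deposited a table of raw read counts per gene, FPKM values of the same genes and a table of gene lengths. The deposited FPKM values are the counts over gene length and a scale for each library, and no value departs from that by a relative amount above 4.08e-08. The build is GRCm38 per the submitters' processing notes, and the aligner, the counting tool and the strand setting are not given in the sources used here. The tables held no columns of group comparisons, and 0 sample columns were left unused. The 40 genes, all of whose coordinates match GENCODE M21, were matched by symbol and joined by gene identifier.

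Genes were filtered with filterByExpr, libraries were scaled by TMM, and edgeR 4.0.16 in R 4.3.3 ran its quasi-likelihood test over all 14624 genes, with Benjamini-Hochberg adjustment and no covariate. DESeq2 1.42.0 and limma 3.58.1 on log2(FPKM + 1) and log2(FPKM + 0.1) were alternatives. The scripts were tested on simulated data. CPM values use TMM-scaled totals. Values for each library were given for every sensor, for the 4 genes of each other class with the smallest p and for its 2 genes with the highest mean FPKM, and up to 4 other pathway genes per class were named by p, most with the fold change alone. The members and lists were chosen with earlier results of these data known. Between libraries of the same replicate number, the correlations of deviations from the group mean were 0.01, 0.256 and 0.138. Libraries of different numbers were not compared, so these values do not settle whether the numbers pair the libraries. No libraries of a group were duplicates, with chi-square per degree of freedom between 4.56 and 47.8. The SDs given are the spread over 3 libraries per group, which includes counting error. The SEs are derived from edgeR's fit over both groups, in which the estimate of spread also draws on other genes.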

Additional observations from a re-analysis of the deposited data

How the results depend on the processing

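Of the 15 alternatives, 36 of the 40 genes kept the sign of their log2 fold change under every one, and the other 4 had a main value of at most 0.07 in size. Hspa5 became 0.00 when low counts were not filtered. With single libraries left out, the values ran from -0.04 to 0.02 for Hspa5, from -0.02 to 0.05 for Dnajc3, from -0.18 to 0.04 for Ddit3 and from -0.38 to 0.06 for Sec61b. The count of genes at an adjusted p under 0.05 was 0 with edgeR over all libraries. It was 6 with no filter, where the share of all genes called was not computed. It was 1 with the DESeq2 Wald test, which called 1.53% of all its genes higher. With single libraries left out it was 0 to 13. It was 13 without control replicate 3, where 8.69% of all genes tested were called higher and 6.49% lower. Without any other library it was 0. The fit with the replicate block gave 2, Kdelr3 and Sec23a. Whether the replicate numbers pair the libraries is not settled, and the share of all genes called in that fit was not computed. The count higher at an unadjusted p under 0.05, 7 in the main comparison, ran from 3 to 10 with single libraries left out, with 3 without Ni replicate 1 and 4 without control replicate 1, control replicate 2 or Ni replicate 3. The count lower, 2 in the main comparison, was 4 with library totals, no filter or DESeq2, 1 with limma on log2(FPKM + 1) or log2(FPKM + 0.1), 6 with the replicate block, and 0 to 7 with single libraries left out, with 7 without control replicate 3, 5 without Ni replicate 2, 1 without control replicate 1 and 0 without control replicate 2, Ni replicate 1 or Ni replicate 3. The median of the 40 genes, -0.03, ran from -0.01 to 0.02 with single libraries left out. Other normalizations and a minimum of 10 counts in every library left the counts of calls at an adjusted p at 0. The causes of these differences were not tested.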

Other observations

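Some cell type lists that no comparison above turned on had these values. The 9 general stromal markers had a median log2 fold change of 0.07, with Prrx1 higher and Cxcl12 lower at an unadjusted p under 0.05 by edgeR's quasi-likelihood test. Cxcl12, a chemokine of marrow stroma, had 2304, 2143 and 1767 CPM in the controls and 1508, 1609 and 1355 CPM in the Ni libraries, which did not overlap. The 7 neutrophil markers summed to between 1.53 and 3.18 CPM in controls and between 2.04 and 2.24 CPM in Ni, and S100a9, Ngp and Ltf were at 0 in all 6 libraries. The 6 adipocyte markers summed to between 532 and 855 CPM in controls and between 451 and 611 CPM in Ni, of which Lpl made up most. Lpl was on the lower side in Ni at -0.49, and was higher in control replicates 1 and 2 than in the other libraries. The other 3 markers tested were above 0, Plin1 at 1.52, Fabp4 at 0.43 and Adipoq at 0.16, and Cidec was higher in all Ni libraries at 0.706 CPM or less.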
